A study of Mus musculus with 24 samples.

Results

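The C/EBP (CCAAT/enhancer-binding protein) family was followed across ER-Hoxb8 cells with forced ERG expression and HDAC3 inhibition. Its members were the rows of the count table for *Cebpa*, *Cebpb*, *Cebpd*, *Cebpe* and *Cebpg*, found through their Ensembl gene identifiers. All 5 were among the 53801 genes of the table, and all 5 were among the 12963 genes with enough reads to be tested. *Cebpz*, which shares the name but is not a leucine zipper protein, was kept out of the family and is described with its partners.

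C/EBP proteins bind DNA as dimers through a basic region and a leucine zipper, and the members pair with each other. In the myeloid lineage C/EBPα is needed for the step from the common myeloid progenitor to the granulocyte-monocyte progenitor, and C/EBPε for the late steps of granulocyte maturation and the secondary granules. C/EBPβ acts in emergency granulopoiesis and in macrophages, C/EBPδ in the acute phase and inflammatory response, and C/EBPγ, which lacks a classical activation domain, mainly forms heterodimers with other members and with ATF4.

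ER-Hoxb8 cells are myeloid progenitors from C57BL/6 mice, held in an immature state by an estrogen-dependent Hoxb8. Stable lines carried P199L-ERG (human ERG with a proline to leucine change at the end of its PNT domain), WT-ERG (wild-type human ERG) or BB (the empty lentiviral vector). All were washed free of beta-estradiol, which releases differentiation toward granulocytes, and held for 36 h in 5 µM BRD3308, an inhibitor of the histone deacetylase HDAC3, or in its solvent DMSO. The 6 groups had 4 libraries each, described as independent experiments. Separate transductions are not described, so a difference between constructs can include a difference between the derived lines, and the study's text gives another dose and time for this experiment in other places. The level of the human transgene was not analysed here.

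The 24 libraries held 12510036 to 16280939 counts. The T lymphocyte markers summed to 3.17 to 5.85 CPM (counts scaled to a common library size), and the erythroid genes *Hba-a1* and *Hbb-bt* were at 0. All 6 granulocyte-monocyte progenitor markers were detected in every group, with a summed level of 21346 to 28745 CPM. With BRD3308 2 of these 6 rose in each construct, while 3 fell in P199L-ERG and in WT-ERG cells and 4 fell in BB cells. In BB cells *Cd34* was at 171 CPM with BRD3308 against 61.6 CPM with DMSO, and *Mpo* at 13184 against 15759 CPM. Markers of maturing cells, and of some other lineages, moved with the inhibitor as well. The 8 neutrophil markers summed to 3788 to 6189 CPM in BRD3308-treated libraries, against 1476 to 2824 CPM in DMSO-treated libraries. This sum mainly followed *S100a8* and *S100a9*. In BB cells their means were 2301 and 1945 CPM with BRD3308, against 1080 and 715 CPM with DMSO. With BRD3308 5 of the 8 rose in P199L-ERG and in BB cells, and 6 rose and 1 fell in WT-ERG cells. Of all genes tested, 24.4% rose and 24.1% fell in P199L-ERG cells, 24.7% and 23.2% in WT-ERG cells, and 24% and 22% in BB cells. The 7 monocyte and macrophage markers summed to 2382 to 3831 CPM, against 791 to 1929 CPM, and all 7 rose in each construct. In each construct all 3 tested dendritic cell markers, the 1 tested erythroid marker and 1 of 2 tested eosinophil markers rose. Of 3 tested B lymphocyte and 3 tested megakaryocyte markers, 2 rose and 1 fell in each construct. Of 5 tested mast cell and basophil markers, 1 rose and 1 fell in P199L-ERG and in BB cells. In WT-ERG cells 0 of these rose and 1 fell. The 1 tested T lymphocyte marker did not pass. In bulk RNA, more cells of a type and more RNA per cell cannot be told apart, and the part of these shifts in the levels of the C/EBP genes was not tested.

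The genes are compact. In the GENCODE annotation of GRCm38, *Cebpa* (ENSMUSG00000034957) is a single exon on chromosome 7 (35119293 to 35121928, plus strand), and *Cebpg* (ENSMUSG00000056216) lies next to it on the same chromosome (35046422 to 35056573, minus strand). *Cebpb* (ENSMUSG00000056501) is a single exon on chromosome 2 (167688915 to 167690418, plus strand), *Cebpd* (ENSMUSG00000071637) is on chromosome 16 (15887286 to 15891031, plus strand) and *Cebpe* (ENSMUSG00000052435) on chromosome 14 (54710360 to 54712174, minus strand). *Tmem189* overlaps 312 exonic bases of *Cebpb* on the other strand, and *Spidr* overlaps 562 exonic bases of *Cebpd*. The strand setting of the counting is not given in the sources used here, so reads from these stretches cannot be assigned with certainty.

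Since ERG is an ETS factor, whose family binds GGAA, the sequence before the start site is shown for the 3 members matched in the RefSeq table (GRCm38.p6), with GGAA or its complement TTCC in capitals. Each runs 5′ to 3′ on the strand of the gene and ends 1 base before the start site. The windows lie at chr7:35119043-35119292 (plus strand) for *Cebpa*, chr2:167688665-167688914 (plus strand) for *Cebpb* and chr7:35056567-35056816 (minus strand) for *Cebpg*.
Cebpa: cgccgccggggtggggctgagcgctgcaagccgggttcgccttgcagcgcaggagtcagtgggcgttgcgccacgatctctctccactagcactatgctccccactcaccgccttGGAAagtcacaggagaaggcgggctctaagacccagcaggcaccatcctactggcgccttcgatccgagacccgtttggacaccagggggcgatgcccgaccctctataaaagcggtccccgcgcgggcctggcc
Cebpb: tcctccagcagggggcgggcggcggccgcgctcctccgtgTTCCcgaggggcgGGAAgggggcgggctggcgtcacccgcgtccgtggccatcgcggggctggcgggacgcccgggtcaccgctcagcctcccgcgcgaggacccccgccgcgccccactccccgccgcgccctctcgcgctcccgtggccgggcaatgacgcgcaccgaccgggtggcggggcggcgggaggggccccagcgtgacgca
Cebpg: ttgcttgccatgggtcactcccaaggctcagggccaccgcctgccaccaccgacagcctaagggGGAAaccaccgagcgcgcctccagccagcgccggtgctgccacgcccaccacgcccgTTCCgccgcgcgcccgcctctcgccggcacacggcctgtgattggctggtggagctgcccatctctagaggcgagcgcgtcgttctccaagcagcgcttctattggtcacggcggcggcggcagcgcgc
*Cebpa* held 1 GGAA, starting 135 bases before the start site, *Cebpb* held 2 and *Cebpg* held 2, counting both strands. These 4 letters are common, and 93.4% of 32851 windows of 250 bases in the table hold at least 1. The longer form CCGGAAGT, found in 2.88% of windows, was in none of the 3 windows. *Cebpa* had TATAAA starting 30 bases before its start (in 12.4% of all windows on either strand). *Cebpb* had TGACG, the core of a cyclic AMP response element, at 3 places (in 17.8% of windows), and *Cebpg* had CCAAT at 2 places, each on the other strand (in 33.8% of windows). The GC content was 66.4% for *Cebpa*, 81.6% for *Cebpb* and 70.8% for *Cebpg*, against a median of 52.4% for all windows. A match is a description of letters and not a bound site.

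On the scale of CPM per kb of exon, which allows genes to be set beside each other, *Cebpe* and *Cebpa* were the most abundant members and *Cebpg* the least. The order was *Cebpe*, *Cebpa*, *Cebpb*, *Cebpd*, *Cebpg* in all 12 DMSO-treated libraries. It was the same in the 4 BRD3308-treated BB libraries and in 1 BRD3308-treated WT-ERG library. In the other 3 BRD3308-treated WT-ERG libraries and in all 4 BRD3308-treated P199L-ERG libraries, *Cebpa* came before *Cebpe*. In BRD3308-treated WT-ERG cells the ratio of *Cebpa* to *Cebpe* per kb was 1.04 ± 0.0497 (SD, n = 4), so that these neighbours in the order did not differ beyond their spread, against 0.817 ± 0.00441 in DMSO-treated WT-ERG cells.

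In each construct the *Cebpe* share of the family was lower and the *Cebpb* share higher with the inhibitor. *Cebpe* made up 35.6% ± 0.298 of the summed CPM per kb in BRD3308-treated P199L-ERG cells, against 44.6% ± 1.001 in DMSO. It made up 35.7% ± 0.924 against 43.0% ± 0.164 in WT-ERG cells, and 37.8% ± 0.464 against 45.9% ± 1.38 in BB cells (SD, n = 4 each). *Cebpb* made up 17.7% ± 0.952 against 12.8% ± 0.954 in P199L-ERG cells, 18.3% ± 0.251 against 12.49% ± 0.342 in WT-ERG cells, and 20.6% ± 0.591 against 13.7% ± 0.294 in BB cells. The summed level of the family was 474 ± 14.9 CPM per kb with BRD3308, against 545 ± 15.0 with DMSO, in P199L-ERG cells, 471 ± 11.9 against 528 ± 11.6 in WT-ERG cells, and 450 ± 17.0 against 475 ± 7.36 in BB cells. These are levels given as a description, with no test.

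**Figure D1:**
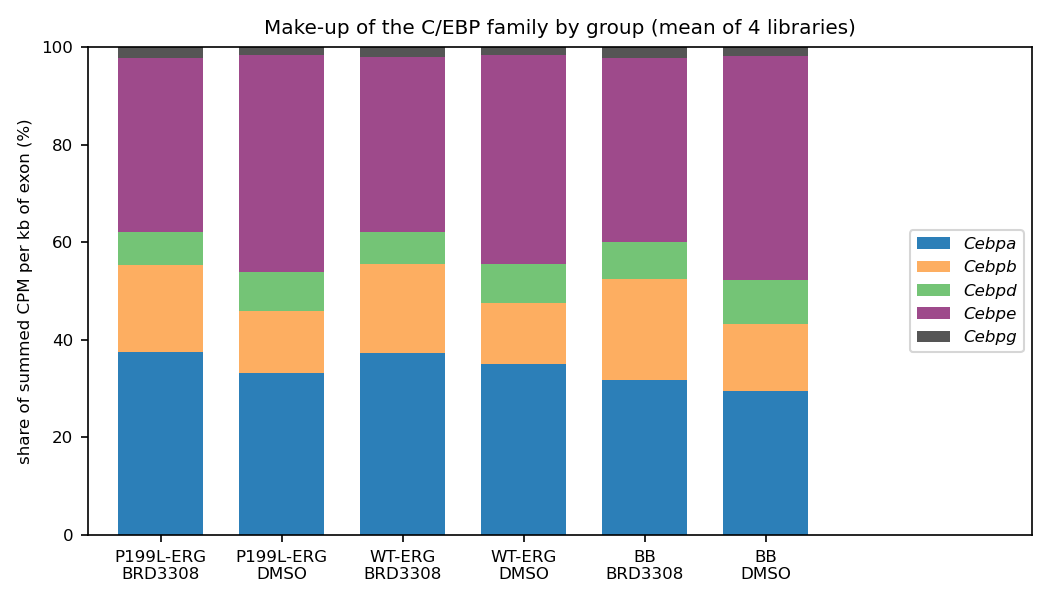
Stacked bars show the mean share of each member in the summed CPM per kb of exon of the family, in percent, for the 6 groups (4 libraries each). The *Cebpe* share is 35.6% to 37.8% in the BRD3308-treated groups and 43.0% to 45.9% in the DMSO-treated groups, while the *Cebpb* share is 17.7% to 20.6% and 12.49% to 13.7%.

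The first question was how the members responded to HDAC3 inhibition in each construct. *Cebpb* rose, and *Cebpd* and *Cebpe* fell, in all 3 constructs. In P199L-ERG cells 4 of 5 members passed the test, with *Cebpg* as the other one that rose, while 48.5% of all genes tested passed it. In WT-ERG cells 4 of 5 passed, with *Cebpa* as the other one that fell, against 48% of all genes. In BB cells 3 of 5 passed, against 45.9% of all genes. When replicate number was added to the model, *Cebpg* passed as well in WT-ERG and in BB cells (edgeR adjusted p = 1.8e-05 and 0.00121). So many genes responded that a count out of 5 members, though above the share of all genes, says little. The sizes and directions are what the members' values add. The test was the edgeR quasi-likelihood test on all 24 libraries, with Benjamini-Hochberg adjustment over all genes tested and a threshold of 0.05.

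**Figure D2:**
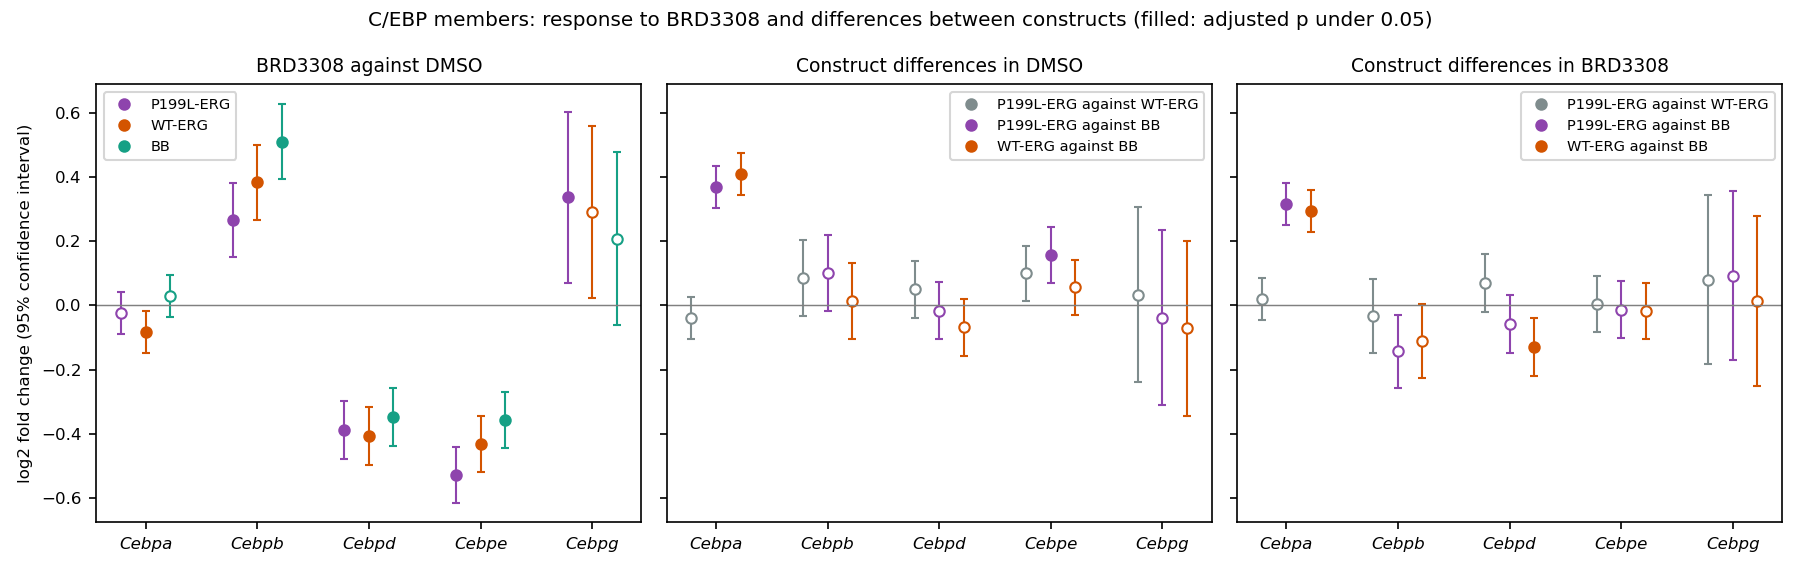
Points are log2 fold changes of the 5 members from the edgeR fit, with 95% confidence intervals, for the response to BRD3308 in each construct and for the construct differences in DMSO and in BRD3308. Filled points passed the adjusted p threshold. *Cebpb* lies above 0 and *Cebpd* and *Cebpe* below 0 in each construct, and *Cebpa* is the member that lies well above 0 in both ERG constructs against BB.

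*Cebpe*, the member tied to terminal granulocyte maturation, fell by 0.53 on the log2 scale in P199L-ERG cells (SE 0.04), by 0.43 in WT-ERG cells (SE 0.04) and by 0.36 in BB cells (SE 0.04). In P199L-ERG cells it was at 219, 212, 204 and 202 CPM with BRD3308, against 292, 292, 299 and 324 CPM with DMSO. In WT-ERG cells it was at 220, 212, 207 and 195 CPM, against 285, 272, 284 and 285 CPM. In BB cells it was at 218, 211, 217 and 198.9 CPM, against 284, 274, 270 and 255 CPM. Every treated library lay below every DMSO-treated library of its construct. The edgeR adjusted p values were 4.9e-11, 2.5e-09 and 8.0e-08, and an exact two-sided permutation test on log2 CPM gave 0.0286 in each construct, the smallest p that 4 against 4 libraries allow. Libraries did not overlap for 39.6% of all genes tested in P199L-ERG cells, for 44.1% in WT-ERG cells and for 44.8% in BB cells.

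*Cebpd*, linked to the acute phase response, also fell in each construct. In P199L-ERG cells it was at 126, 125, 124 and 117 CPM with BRD3308, against 164, 150, 159 and 171 CPM with DMSO. In WT-ERG cells it was at 119, 116, 117 and 116 CPM, against 155, 155, 151 and 160 CPM. In BB cells it was at 131, 136, 125 and 120 CPM, against 175, 157, 157 and 163 CPM. The libraries did not overlap in any construct. The log2 fold changes were -0.39 in P199L-ERG cells, -0.41 in WT-ERG cells and -0.35 in BB cells (SE 0.04 each), with edgeR adjusted p values of 3.0e-08, 1.3e-08 and 2.1e-07. *Spidr*, on the other strand, did not move down with it. Its log2 fold changes were 0.06, 0.11 and 0.16 in these constructs, of which that in BB cells passed (edgeR adjusted p = 0.00558).

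*Cebpb*, the member of emergency granulopoiesis and macrophages, rose in every construct. In P199L-ERG cells it was at 134, 135, 114 and 124 CPM with BRD3308, against 98.4, 103, 98.8 and 121 CPM with DMSO, and here replicate 4 in DMSO lay above replicate 3 in BRD3308. In WT-ERG cells it was at 131, 129, 130 and 127 CPM, against 102, 95.1, 96.4 and 104 CPM. In BB cells it was at 148, 144, 137 and 129 CPM, against 97.7, 99.3, 97.0 and 98.6 CPM, and the groups did not overlap in WT-ERG or BB cells. The log2 fold changes were 0.27 in P199L-ERG cells, 0.38 in WT-ERG cells and 0.51 in BB cells (SE 0.06 each), with edgeR adjusted p values of 3.1e-04, 2.7e-06 and 2.6e-08. The exact permutation p was 0.0571 in P199L-ERG cells and 0.0286 in the other constructs. *Tmem189*, which shares 312 exonic bases with *Cebpb*, also rose, by 0.14, 0.22 and 0.25 on the log2 scale (SE 0.05 each). The part of shared reads in this rise was not tested.

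*Cebpa*, the member of progenitor commitment, hardly responded. Its log2 fold change was -0.02 in P199L-ERG cells (95% confidence interval -0.09 to 0.04), -0.08 in WT-ERG cells (-0.15 to -0.02) and 0.03 in BB cells (-0.03 to 0.10). In WT-ERG cells it was at 465, 454, 471 and 456 CPM with BRD3308, against 494, 471, 498 and 493 CPM with DMSO, and the groups met at 471 CPM. The fall in WT-ERG cells passed the test (edgeR adjusted p = 0.0316) but not the exact permutation test (p = 0.0571). It also failed in edgeR without replicate 1, 3 or 4 of the DMSO-treated WT-ERG cells (adjusted p = 0.0658, 0.0823 and 0.0546) or without replicate 2 of the BRD3308-treated WT-ERG cells (adjusted p = 0.0846). Over 34 alternatives the adjusted p ran from 0.00402 to 0.234.

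*Cebpg*, the heterodimer partner, had the lowest level per kb and the widest spread. In P199L-ERG cells it was at 76.3, 58.3, 56.8 and 48.8 CPM with BRD3308, against 53.9, 45.1, 45.4 and 45.6 CPM with DMSO. In WT-ERG cells it was at 64.5, 59.0, 54.3 and 49.1 CPM, against 54.3, 47.9, 44.8 and 38.4 CPM. In BB cells it was at 69.8, 58.0, 50.8 and 46.4 CPM, against 61.5, 47.8, 43.8 and 41.8 CPM. The groups overlapped in each construct. Replicate 1 was the highest library in all 6 groups and replicate 4 the lowest in 5 of them, and within each number the BRD3308-treated library was above its DMSO-treated counterpart in every construct.

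The call of *Cebpg* changed with the model and with the libraries kept. The log2 fold changes were 0.34 in P199L-ERG cells (SE 0.13, edgeR adjusted p = 0.0330), 0.29 in WT-ERG cells (SE 0.13, adjusted p = 0.0688) and 0.21 in BB cells (SE 0.13, adjusted p = 0.206). With the replicate block, in the constructs where the numbers paired the libraries, the log2 fold change was 0.33 in P199L-ERG cells (edgeR adjusted p = 2.0e-06) and 0.21 in BB cells (adjusted p = 0.00121). In WT-ERG cells, where the numbers did not pair every library, the block gave 0.29 (adjusted p = 1.8e-05). DESeq2 did not call it in P199L-ERG cells (adjusted p = 0.0614). Without a filter on low counts edgeR also called it in WT-ERG cells (adjusted p = 8.5e-06) and in BB cells (adjusted p = 0.00485). It was further called in WT-ERG cells with more than 30 reads in every library (adjusted p = 0.0447) and with only the groups compared (adjusted p = 0.0115). In P199L-ERG cells the call was lost without replicate 1 in BRD3308 (log2 fold change 0.20, adjusted p = 0.214) and without replicate 2, 3 or 4 in DMSO (adjusted p = 0.0765, 0.0746 and 0.0673). In BB cells the rise passed without replicate 1 in DMSO (0.34, adjusted p = 0.0419). In WT-ERG cells it passed without replicate 1 in DMSO (0.37, adjusted p = 0.0310) or replicate 4 in BRD3308 (0.34, adjusted p = 0.0492), and also when replicate 1 of BB in DMSO, which is in neither group, was left out (adjusted p = 0.0499).

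**Figure D3:**
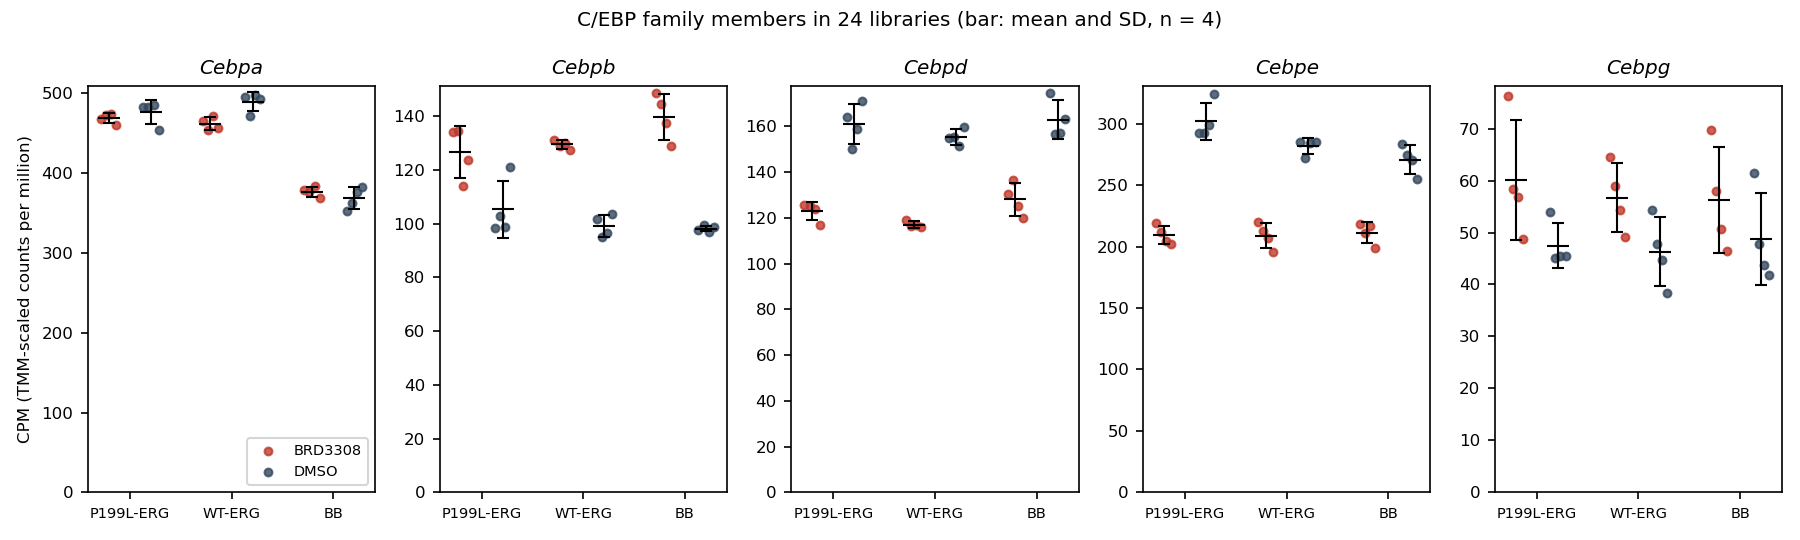
Each point is the CPM of a member in a library, with BRD3308-treated libraries left of DMSO-treated libraries in each construct, and the bar gives the mean and SD of 4 libraries. *Cebpe* and *Cebpd* sit lower and *Cebpb* higher with BRD3308, and *Cebpa* is at 453 to 498 CPM with either ERG construct and at 352 to 383 CPM in BB cells.

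**Figure D4:**
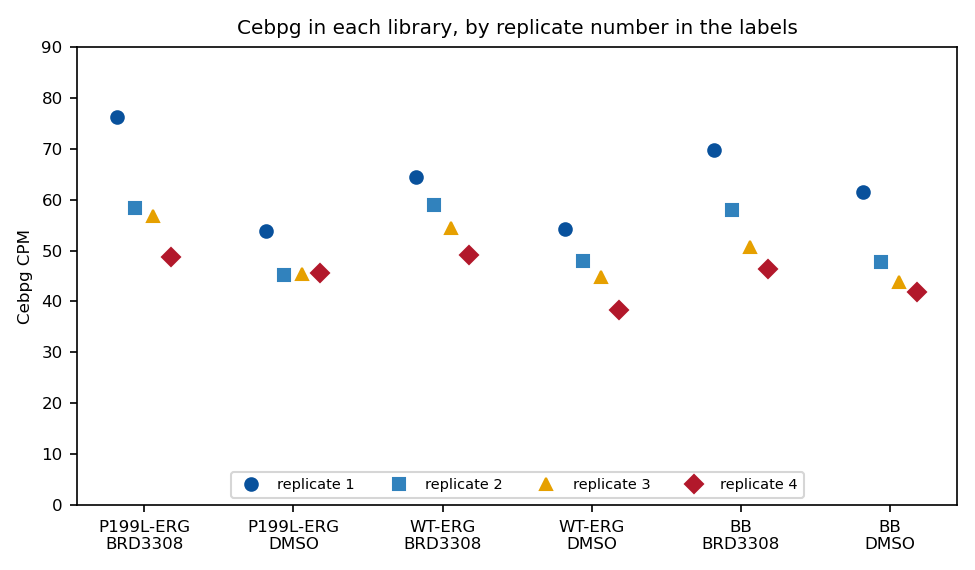
Each marker is the CPM of *Cebpg* in a library, by construct and treatment, with a shape for each replicate number of the labels. Replicate 1 is the highest in all 6 groups.

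The next question was how ERG changed the family. *Cebpa* was higher with either ERG construct and was the only member to pass in WT-ERG against BB cells in DMSO, where 29.7% of all genes tested passed. It was at 482, 482, 485 and 453 CPM in P199L-ERG cells and at 494, 471, 498 and 493 CPM in WT-ERG cells, against 352, 362, 376 and 382 CPM in BB cells. No library with an ERG construct overlapped BB, which held for 24.5% of all genes with P199L-ERG and 30.5% with WT-ERG. The log2 fold change against BB was 0.37 for P199L-ERG (SE 0.03, edgeR adjusted p = 5.5e-10) and 0.41 for WT-ERG (SE 0.03, adjusted p = 3.7e-11). That is 1.29-fold and 1.33-fold. Absolute fold changes were smaller in 83.5% and 83.6% of genes tested. The exact permutation p was 0.0286 in each comparison. The comparisons share the BB libraries.

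Markers of other cell types also differed between the constructs in DMSO. Of all genes tested, 15.3% were higher and 12.9% lower in P199L-ERG against BB cells, and 15.6% and 14.1% in WT-ERG against BB cells. The 7 monocyte and macrophage markers summed to 1058 to 1150 CPM in P199L-ERG cells and 791 to 873 CPM in WT-ERG cells, against 1768 to 1929 CPM in BB cells, with 1 higher and 5 lower in each comparison with BB. The mast cell and basophil markers summed to 231 to 277 CPM and 303 to 338 CPM, against 125 to 137 CPM, and of the 5 tested of 6, 5 were higher in P199L-ERG and 4 in WT-ERG cells, while *Fcer1a* was at 0 in every group. Of the 8 neutrophil markers 1 was higher and 4 lower in P199L-ERG cells, and 3 were higher and 3 lower in WT-ERG cells, with sums of 1476 to 2197 CPM and 1964 to 2824 CPM, against 1716 to 2154 CPM in BB cells. The megakaryocyte markers summed to 44.7 to 47.8 CPM and 63.6 to 69.8 CPM, against 24.1 to 28.1 CPM. Of the 3 tested of 5, 1 was higher and 1 lower in each ERG construct. Mean *Itga2b* was 35.5 CPM in P199L-ERG and 54.2 CPM in WT-ERG cells, against 12.8 CPM in BB cells. Mean *Gp9* was 3.47 and 3.82 CPM, against 5.82 CPM. The B lymphocyte markers summed to 13.4 to 14.7 CPM and 12.6 to 17.4 CPM, against 60.7 to 69.5 CPM. Of the 3 tested of 5, 0 were higher and 1 lower in each ERG construct. Mean *Ighm* was 9.71 and 11.05 CPM, against 58.7 CPM. These sums thus mainly follow *Itga2b* and *Ighm*. The part of these shifts in the level of *Cebpa*, and in the list genes described further on, was not tested.

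The rise of *Cebpa* was also found in BRD3308. It was at 467, 472, 473 and 460 CPM in P199L-ERG cells and at 465, 454, 471 and 456 CPM in WT-ERG cells, against 378, 376, 383 and 368 CPM in BB cells, again with no overlap, as for 23% of all genes with P199L-ERG and 25.9% with WT-ERG. The log2 fold change against BB was 0.32 for P199L-ERG (SE 0.03, edgeR adjusted p = 1.7e-08) and 0.29 for WT-ERG (SE 0.03, adjusted p = 3.7e-08). In BRD3308, 1 of the 7 monocyte and macrophage markers was higher and 5 were lower in each ERG construct against BB. Of the 5 tested mast cell and basophil markers 3 (P199L-ERG) and 4 (WT-ERG) were higher. Of all genes tested, 16.9% passed in P199L-ERG against BB cells in BRD3308 and 21.1% in WT-ERG against BB cells, in either direction. The *Cebpa* calls held in all 34 alternatives in each of the 4 comparisons of *Cebpa* with BB. *Cebpa* did not pass between P199L-ERG and WT-ERG cells, with a log2 fold change of -0.04 in DMSO (95% confidence interval -0.10 to 0.03) and 0.02 in BRD3308 (-0.04 to 0.09).

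In P199L-ERG against BB cells in DMSO, 2 of 5 members passed, where 28.2% of all genes did. Besides *Cebpa* this was *Cebpe*, at 292, 292, 299 and 324 CPM in P199L-ERG cells, against 284, 274, 270 and 255 CPM in BB cells, with no overlap. Its log2 fold change was 0.16 (SE 0.04, edgeR adjusted p = 0.00603), and it did not pass when only these groups were fitted (0.14, adjusted p = 0.0549). In WT-ERG against BB cells in DMSO *Cebpe* had a log2 fold change of 0.06 (SE 0.04, adjusted p = 0.351). Between P199L-ERG and WT-ERG cells in DMSO 0 of 5 members passed, where 4.67% of all genes did. *Cebpe* did not overlap there (7.63% of all genes did not), at 285, 272, 284 and 285 CPM in WT-ERG cells, but its log2 fold change of 0.10 (95% confidence interval 0.01 to 0.19) gave an unadjusted p of 0.0244 and an edgeR adjusted p of 0.218. It was the only member under 0.05 without adjustment in that comparison, and DESeq2 and limma-voom also called 0 of 5.

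*Cebpb*, *Cebpd* and *Cebpg* did not pass between the constructs in DMSO. Their log2 fold changes for P199L-ERG against BB were 0.10 (95% confidence interval -0.02 to 0.22), -0.02 (-0.11 to 0.07) and -0.04 (-0.31 to 0.24). For WT-ERG against BB they were 0.01 (-0.10 to 0.13), -0.07 (-0.16 to 0.02) and -0.07 (-0.34 to 0.20). The wide intervals of *Cebpg* allow changes that these libraries would not show.

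In BRD3308, *Cebpd* joined *Cebpa* in WT-ERG against BB cells. There 2 of 5 members passed, against 21.1% of all genes. *Cebpd* was at 119, 116, 117 and 116 CPM in WT-ERG cells, against 131, 136, 125 and 120 CPM in BB cells, with no overlap between the groups and a log2 fold change of -0.13 (SE 0.04, edgeR adjusted p = 0.0367). This call was lost without replicate 2 of the BRD3308-treated BB cells (-0.11, adjusted p = 0.0944) and without replicate 2 of the BRD3308-treated WT-ERG cells (-0.13, adjusted p = 0.0818). In P199L-ERG against BB cells 1 of 5 passed, against 16.9% of all genes. *Cebpb* came next, with a log2 fold change of -0.14 (SE 0.06, adjusted p = 0.0816), which passed with the replicate block (-0.14, adjusted p = 0.0345). It also passed without replicate 4 of the BRD3308-treated BB cells (adjusted p = 0.0262), replicate 4 of the DMSO-treated P199L-ERG cells (adjusted p = 0.0145), or replicate 1 or 2 of the BRD3308-treated P199L-ERG cells (adjusted p = 0.0399 and 0.0365). In WT-ERG against BB cells *Cebpb* was at -0.11 (adjusted p = 0.175) and passed without replicate 4 of the BRD3308-treated BB cells (adjusted p = 0.0497) or of the DMSO-treated P199L-ERG cells (adjusted p = 0.0388). Between P199L-ERG and WT-ERG cells in BRD3308 0 of 5 passed, where 3.4% of all genes did. None of the 5 was free of overlap, against 10.5% of all genes. 0 of 5 had an unadjusted p under 0.05, and DESeq2 and limma-voom also called 0.

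The last question was whether the response to BRD3308 differed between constructs, tested as the difference of responses. 0 of 5 members passed for P199L-ERG minus BB, WT-ERG minus BB and P199L-ERG minus WT-ERG, where 1.05%, 1.73% and 0.0463% of all genes did, and DESeq2 and limma-voom also called 0 of 5 each time. The response of *Cebpb* differed between P199L-ERG and BB cells by a log2 value of -0.24 (95% confidence interval -0.41 to -0.08, unadjusted p = 0.00538, edgeR adjusted p = 0.172). The response of *Cebpe* differed by -0.17 (-0.29 to -0.05, unadjusted p = 0.00883, adjusted p = 0.212). For WT-ERG minus BB, *Cebpa* differed by -0.11 (-0.21 to -0.02, unadjusted p = 0.0174, adjusted p = 0.308). These 3 were the members with an unadjusted p under 0.05.

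To place each member among all genes, the genes with the most similar profile were taken from 9740 genes with a mean of at least 2 on the log2 CPM scale, by the root mean square difference of centred log2 CPM over the 24 libraries. *Cebpe* was nearest to *Sart3*, *Smc4* and *Ptpa*, with differences of 0.0533, 0.0556 and 0.0560, against a median of 0.244 for all genes. *Cebpd* was nearest to *Flot2*, *Map2k3* and *Odf2* (0.0570, 0.0576 and 0.0626, median 0.222), and *Cebpa* to *Bzw2*, *Slc16a1* and *Rpn1* (0.0616, 0.0626 and 0.0658, median 0.221). *Cebpb* was nearest to *Sp100*, *Ubap1* and *B2m* (0.0824, 0.0836 and 0.0882, median 0.271), and *Cebpg* to *Nemp1*, *Ice2* and *Pla2g15* (0.107, 0.116 and 0.118, median 0.289). No other member of the family was among the nearest 3 of any member. The libraries share treatment, construct and depth, so the likeness is a description.

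Genes known to depend on C/EBPε were mostly lower with ERG. Of 10 granule genes, 9 were tested. For the counts that follow, 15.3% of all genes were higher and 12.9% lower in P199L-ERG against BB cells in DMSO, 15.6% and 14.1% in WT-ERG against BB cells, and 2.23% and 2.45% in P199L-ERG against WT-ERG cells. In P199L-ERG against BB cells in DMSO 0 were higher and 9 lower, with a median log2 fold change of -1.38 (0.02 for all genes tested). In WT-ERG against BB cells 0 were higher and 7 lower, with a median of -1.33 (0.01 for all genes). *Cebpe* itself was at 0.16 and 0.06 in these comparisons. *Cybb*, the catalytic subunit of the phagocyte oxidase, was at 15.0 ± 1.58 CPM in P199L-ERG cells and 13.4 ± 0.989 CPM in WT-ERG cells, against 49.9 ± 4.57 CPM in BB cells (SD, n = 4 each). *Chil3*, a chitinase-like granule protein, was at 24.5 ± 2.91 and 12.01 ± 1.44 CPM, against 58.8 ± 10.6 CPM. *Ngp*, neutrophilic granule protein, was at 322 ± 62.3 and 232 ± 39.7 CPM, against 857 ± 125 CPM, and *Ltf*, lactoferrin, at 18.8 ± 4.13 and 11.2 ± 1.08 CPM, against 37.0 ± 7.86 CPM. The log2 fold changes of WT-ERG against BB were -1.90 for *Cybb*, -2.29 for *Chil3*, -1.89 for *Ngp* and -1.73 for *Ltf* (SE 0.08, 0.12, 0.12 and 0.13, all passing). Between P199L-ERG and WT-ERG cells 3 were higher, *Chil3*, *Ltf* and *Ngp*, and 1 lower, *Camp*. *Ltf*, *Camp* and *Mmp8* are also neutrophil markers, and the marker shifts given beside *Cebpa* ran between the same groups. *Mmp8* was at 0.115 CPM in P199L-ERG, 0.201 CPM in WT-ERG and 0.418 CPM in BB cells, and *Prg2* at 0.317, 0.413 and 0.757 CPM. These 2 genes rest on few reads, and their fold changes are uncertain. With a library left out, *Mmp8* lost its call in P199L-ERG against BB cells without replicate 3 of the BB cells or replicate 2 of the P199L-ERG cells in DMSO (edgeR adjusted p = 0.0579 and 0.0519). Its log2 fold change was -2.504 without replicate 1 of the P199L-ERG cells, against -1.79 with all libraries. Between the ERG constructs, *Ngp* lost its call without replicate 1 of the WT-ERG or replicate 4 of the P199L-ERG cells in DMSO (adjusted p = 0.0794 and 0.0676). *Camp* lost it without replicate 2, 3 or 4 of the WT-ERG cells (adjusted p = 0.0574, 0.0826 and 0.0846) or replicate 1, 2 or 3 of the P199L-ERG cells (adjusted p = 0.0731, 0.119 and 0.0584).

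With BRD3308, 24.4% of all genes rose and 24.1% fell in P199L-ERG cells, 24.7% and 23.2% in WT-ERG cells, and 24% and 22% in BB cells. Of these 9 genes, 3 rose and 0 fell in P199L-ERG cells (median 0.24), 4 rose and 0 fell in WT-ERG cells (median 0.61), and 3 rose and 1 fell in BB cells (median 0.23). *Cebpe* fell in each construct. In either direction 3, 4 and 4 of the 9 were called, against 48.5%, 48% and 45.9% of all genes. In the main fit the list was thus not called more often than all genes. In P199L-ERG cells 5 rose without replicate 4 of both ERG constructs in DMSO, and 4 rose and 1 fell with the replicate block. In WT-ERG cells 6 rose and 0 fell under either setting, and in BB cells 4 rose and 1 fell. The shares of all genes under these settings are not given here. In WT-ERG cells *Cybb* was at 61.4 ± 4.70 CPM with BRD3308 against 13.4 ± 0.989 CPM with DMSO, *Il1rn*, the interleukin 1 receptor antagonist, at 11.99 ± 1.13 against 4.43 ± 0.483 CPM, *Ltf* at 17.1 ± 1.196 against 11.2 ± 1.08 CPM, and the collagenase gene *Mmp8* at 2.43 ± 0.556 against 0.201 ± 0.0993 CPM (SD, n = 4 each). The members that did not pass in WT-ERG cells were *Ngp*, *Chil3*, *Camp*, *Lcn2* and *Prg2*, with log2 fold changes of 0.06, 0.27, 0.22, 0.05 and 0.78. *Ngp* was the gene that fell in BB cells (-0.30), a call lost in edgeR without replicate 3 or 4 in DMSO (adjusted p = 0.120 and 0.108) or replicate 1 or 2 in BRD3308 (adjusted p = 0.0908 and 0.0601).

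**Figure D5:**
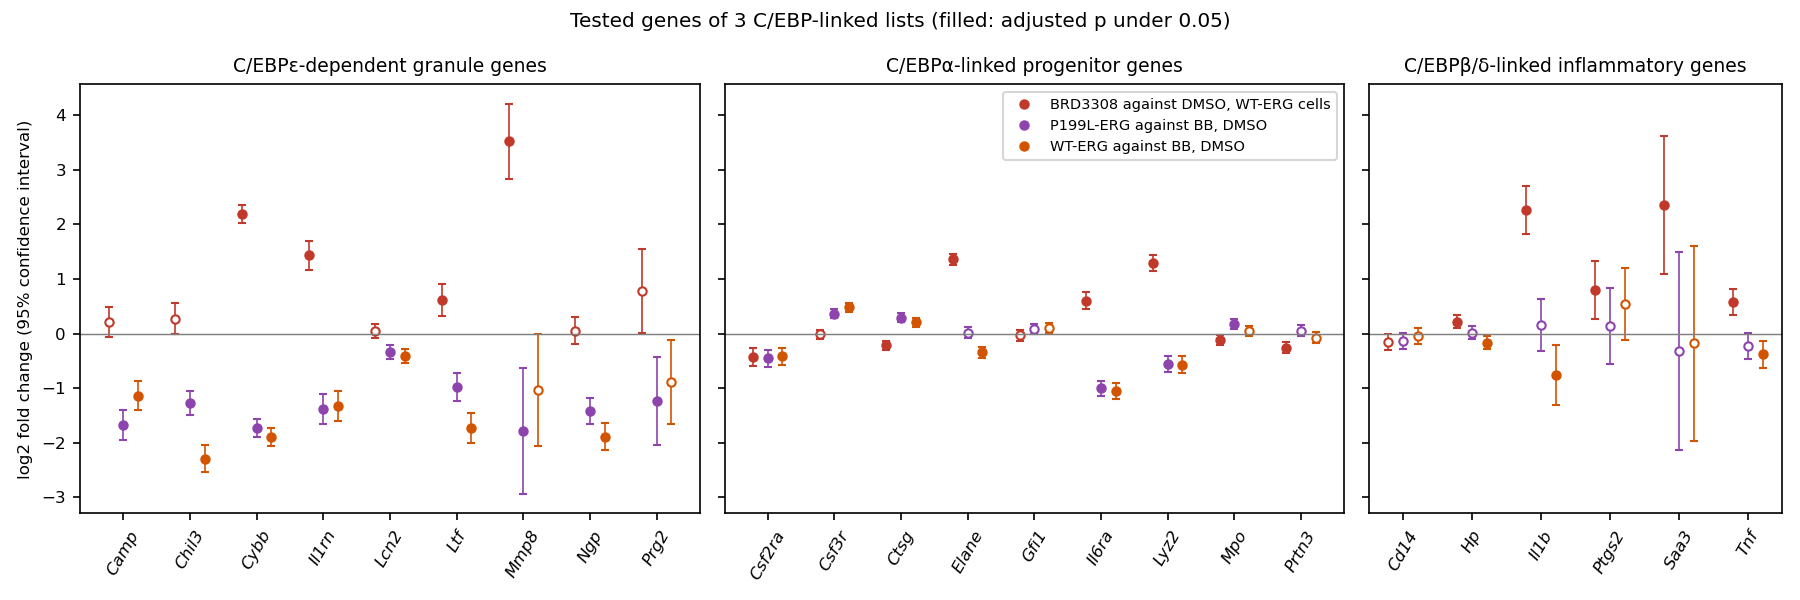
Points are log2 fold changes with 95% confidence intervals for the tested genes of 3 lists of genes linked to C/EBP members, in WT-ERG cells with BRD3308 against DMSO and in P199L-ERG and WT-ERG against BB cells in DMSO. Filled points passed the adjusted p threshold. In the granule list all 9 purple points (P199L-ERG against BB) lie below 0. With BRD3308 all 9 points lie above 0, and those of *Cybb*, *Il1rn*, *Ltf* and *Mmp8* are filled.

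The genes linked to C/EBPα went in either direction. Of 9 tested, 3 rose and 4 fell with BRD3308 in each construct (median -0.04 in P199L-ERG, -0.03 in WT-ERG and -0.11 in BB cells). In either direction, 48.5%, 48% and 45.9% of all genes tested passed in these constructs. In WT-ERG cells *Elane*, neutrophil elastase, was at 2146 ± 58.6 CPM against 835 ± 61.1 CPM, and *Lyz2*, lysozyme, at 3482 ± 305 CPM against 1423 ± 121 CPM. *Il6ra*, the interleukin 6 receptor, was at 22.03 ± 1.46 CPM against 14.5 ± 1.06 CPM, whereas *Csf2ra*, a subunit of the GM-CSF receptor, fell to 77.4 ± 4.36 CPM with BRD3308, against 104 ± 8.36 CPM with DMSO. Among constructs in DMSO, 3 were higher and 3 lower in P199L-ERG against BB (median 0.06), 2 higher and 4 lower in WT-ERG against BB (median -0.07), and 1 higher and 0 lower in P199L-ERG against WT-ERG, where the replicate block gave 3 and 1. The shares of all genes that passed in the main fit were 28.2%, 29.7% and 4.67% in this order. *Csf3r*, the G-CSF receptor and a gene that C/EBPα activates, was at 212 ± 4.75 CPM in P199L-ERG and 230 ± 9.81 CPM in WT-ERG cells, against 165 ± 6.83 CPM in BB cells, and was higher with either ERG construct, as *Cebpa* was. *Il6ra* was lower, at 14.9 ± 1.11 and 14.5 ± 1.06 CPM, against 29.9 ± 2.48 CPM. Mean levels in the same order were 1428 and 1423 CPM, against 2109 CPM, for *Lyz2*, and 102 and 104 CPM, against 139 CPM, for *Csf2ra*. *Elane* was at 1072 and 835 CPM, against 1061 CPM, and *Ctsg*, cathepsin G, at 4356 and 4127 CPM, against 3565 CPM.

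Of the inflammatory genes linked to C/EBPβ and C/EBPδ, 6 of 10 had enough reads. With BRD3308 3 rose and 0 fell in P199L-ERG cells (median 0.81), 5 rose and 0 fell in WT-ERG cells (median 0.70), and 3 rose and 0 fell in BB cells (median 0.84). In either direction, 48.5%, 48% and 45.9% of all genes tested passed in these constructs. *Il1b* was at 6.28 ± 0.411 CPM in BRD3308-treated WT-ERG cells against 1.34 ± 0.574 CPM in DMSO, *Tnf* at 27.5 ± 5.15 against 18.3 ± 1.97 CPM, and the acute phase gene *Hp*, haptoglobin, at 914 ± 64.1 against 788 ± 47.4 CPM. *Saa3*, also of the acute phase, was at 1.10, 1.29, 0.935 and 5.12 CPM with BRD3308, against 0.421, 0.485, 0.372 and 0.243 CPM with DMSO, with replicate 4 in BRD3308 well above the other libraries. Its log2 fold change was 2.35, and 1.49 without that library (edgeR adjusted p = 0.0354). In DMSO, 0 were higher and 3 lower in WT-ERG against BB, these being *Tnf*, *Hp* and *Il1b* (log2 fold changes of -0.38, -0.17 and -0.77). In P199L-ERG against BB 0 of 6 passed, and with the replicate block 2 were lower. In P199L-ERG against WT-ERG cells 1 was higher, *Il1b* (0.93), and with the block 2. The shares of all genes that passed in the main fit were 29.7% in WT-ERG against BB, 28.2% in P199L-ERG against BB and 4.67% in P199L-ERG against WT-ERG cells. With a library left out, the edgeR adjusted p reached 0.107 for *Il1b* in WT-ERG against BB cells (lost without replicate 2 or 3 of the BB or replicate 1, 2 or 3 of the WT-ERG cells in DMSO). It reached 0.147 for *Il1b* between the ERG constructs (lost without replicate 1, 2 or 3 of the WT-ERG or replicate 2 or 4 of the P199L-ERG cells in DMSO). It reached 0.0974 for *Hp* (lost without replicate 3 or 4 of the BB or replicate 1 or 2 of the WT-ERG cells in DMSO) and 0.0686 for *Tnf* (lost without replicate 4 of the BB or replicate 2 of the WT-ERG cells in DMSO).

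Among partners and regulators of C/EBP proteins, 10 of 11 were tested. With BRD3308 1 rose and 4 fell in P199L-ERG cells, 1 rose and 3 fell in WT-ERG cells, and 0 rose and 1 fell in BB cells, where leaving out replicate 4 of both ERG constructs in DMSO gave 1 and 2 and the replicate block 2 and 2. In either direction, 48.5%, 48% and 45.9% of all genes tested passed in these constructs in the main fit. In WT-ERG cells *Cebpz* was at 142 ± 2.74 CPM with BRD3308 against 176 ± 5.98 CPM with DMSO, and the pseudokinase gene *Trib1*, whose product targets C/EBPα for degradation, at 7.54 ± 0.946 against 11.7 ± 1.03 CPM. *Trib3* was at 5.49 ± 0.862 against 3.66 ± 0.804 CPM, and *Calr*, calreticulin, at 5402 ± 112 against 5788 ± 11.9 CPM. *Ddit3*, the dominant negative C/EBP homologous protein, fell in P199L-ERG cells by 0.52 on the log2 scale. Against BB cells in DMSO, *Calr* and *Cebpz* were the genes that were higher in P199L-ERG (0.31 and 0.18) and in WT-ERG cells (0.46 and 0.18), with 0 lower. With the replicate block 4 were higher in P199L-ERG. *Calr* was the 1 that was lower in P199L-ERG than in WT-ERG cells (-0.14). The shares of all genes that passed in the main fit were 28.2% in P199L-ERG against BB, 29.7% in WT-ERG against BB and 4.67% in P199L-ERG against WT-ERG cells.

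Upstream receptors, kinases and factors were all tested (17 of 17). With BRD3308 10 rose and 1 fell in P199L-ERG cells, 8 rose and 2 fell in WT-ERG cells, and 8 rose and 4 fell in BB cells (medians 0.21, 0.18 and 0.13). In either direction, 48.5%, 48% and 45.9% of all genes tested passed in these constructs. In WT-ERG cells *Csf1r*, the M-CSF receptor, was at 66.4 ± 6.28 CPM with BRD3308 against 27.7 ± 0.767 CPM with DMSO, *Flt3*, the FLT3 ligand receptor, at 5.03 ± 0.606 against 1.97 ± 0.130 CPM, and *Mapk3*, ERK1, at 247 ± 4.70 against 198 ± 7.44 CPM. Against BB cells in DMSO 3 were higher and 8 lower in P199L-ERG cells, and 3 higher and 8 lower in WT-ERG cells (medians -0.10 and -0.02). The shares of all genes that passed were 28.2% and 29.7%. *Il6st*, the signalling chain of the interleukin 6 receptor, was at 0.779 ± 0.218 CPM in P199L-ERG and 1.48 ± 0.586 CPM in WT-ERG cells, against 0.0513 ± 0.0344 CPM in BB cells, less than 1 read per library on average, so no fold is given. *Mapk3* was at 237 ± 20.2 and 198 ± 7.44 CPM, against 269 ± 2.77 CPM. *Spi1*, which encodes PU.1, a partner of C/EBPα in the myeloid program, had log2 fold changes of -0.14 and -0.16 and was lower in either ERG construct. Its call was lost in P199L-ERG against BB without replicate 3 or 4 of the BB or replicate 1 or 2 of the P199L-ERG cells in DMSO (edgeR adjusted p = 0.0743, 0.114, 0.0719 and 0.0520), and in WT-ERG against BB without replicate 4 of the BB cells (adjusted p = 0.0515). *Runx1*, which lies upstream of *Cebpa*, had log2 fold changes of 0.02 and 0.03 and did not pass.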

How the data were processed

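RNA was measured in 24 libraries of ER-Hoxb8 cells in 6 groups of construct and treatment, taken from the labels. The deposited values are raw gene counts, made by the authors from trimmed reads of at least 30 bp mapped to GRCm38. The submitters' processing notes name cutadapt, STAR, HTSeq and DESeq2, without versions. For the annotation and the strand setting of this step, the sources used here give nothing. Symbols and exon lengths came from GENCODE M21, which matched 53706 of 53801 identifiers. Libraries were scaled with TMM factors and genes were filtered with filterByExpr. All libraries entered a single quasi-likelihood model (edgeR 4.0.16, R 4.3.3) that held a coefficient for each group. SE is the absolute log2 fold change over the square root of F. Levels are CPM with TMM factors, given as mean and SD, and per kb of exon where genes are compared. Exact two-sided permutation tests used log2 CPM with a prior count of 0.5. P values weigh a difference against the spread between these libraries, which the edgeR model estimated from all 6 groups together. The counts at 12510036 to 16280939 per library limit the precision of the values. The labels do not say what a replicate number stands for. Deviations of same-numbered libraries from their group means correlated above 0.1 in 32 of 36 pairs, and in every pair in 6 of 9 comparisons (BRD3308 in P199L-ERG and in BB cells, P199L-ERG against WT-ERG in DMSO, and the 3 construct comparisons in BRD3308), which were taken as paired. The main edgeR fit and the permutation tests did not use this pairing, so their p values and counts ignore it. The pairing entered only as the replicate block, which was run as an alternative.

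The 5 members were given in advance, and the members and the 5 pathway and 10 marker lists were chosen with earlier results of these data known. Members were named in every comparison, and of each list the up to 4 genes with the smallest p in BRD3308 against DMSO in WT-ERG cells and in WT-ERG against BB cells in DMSO, with *Ddit3*, *Spi1*, *Runx1* and the list genes that the counts single out named besides, after their values were seen. The other marker lists (mast cell and basophil, eosinophil, dendritic, B lymphocyte and megakaryocyte) summed to 71.0 to 338, 54.7 to 154, 22.6 to 48.0, 12.6 to 69.5 and 24.1 to 69.8 CPM. The alternatives tried were no filter, library size alone, RLE factors, more than 30 reads in every library, DESeq2 1.42.0, limma-voom (limma 3.58.1), the groups compared alone, the replicate block, adjusted p under 0.01, each library left out in turn, replicate 4 of both ERG constructs in DMSO left out together, and the longest transcript as length. Applying the replicate block and the joint omission of replicate 4 to the list counts, and leaving out each library for the named list genes, was chosen after seeing the data. The edgeR procedure was tested on simulated counts. Promoter windows came from RefSeq (GRCm38.p6), where 3 of 5 members matched. No columns were left out.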

Additional observations from a re-analysis of the deposited data

Results flagged for a closer look

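In 3 of 30 groups of 4 libraries, a library stood apart from the other 3 for a member, where chance gives about 1 group in 20. *Cebpa* in DMSO-treated P199L-ERG cells was lowest in replicate 4, at 453 CPM against 482 to 485 CPM in the other libraries (ratio of the gap to the range 0.907). *Cebpe* in DMSO-treated WT-ERG cells was lowest in replicate 2, at 272 CPM against 284 to 285 CPM (ratio 0.961). *Cebpg* in DMSO-treated P199L-ERG cells was highest in replicate 1, at 53.9 CPM against 45.1 to 45.6 CPM (ratio 0.948).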

How the results depend on the processing

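The rises of *Cebpb* and the falls of *Cebpd* and *Cebpe* with BRD3308 passed in every construct, and the higher *Cebpa* against BB in either treatment, under all 34 alternatives. Of 5 members, 1 passed in place of 2 in WT-ERG against BB cells in BRD3308 with library size alone, without a filter, or at adjusted p under 0.01, and 1 in place of 2 in P199L-ERG against BB cells in DMSO when only these groups were fitted. In P199L-ERG against BB cells in BRD3308 2 passed in place of 1 with the replicate block and without replicate 4 of both ERG constructs in DMSO. With each library left out in turn, 1 to 3 passed in WT-ERG against BB cells in BRD3308 and 1 to 2 in P199L-ERG against BB cells in BRD3308. In WT-ERG cells, where the numbers did not pair every library, the replicate block gave *Cebpg* an edgeR adjusted p of 1.8e-05 for BRD3308. The fall of *Cebpa* there was not called with RLE factors, without a filter, with more than 30 reads in every library, at adjusted p under 0.01 or with only these groups.

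Changes of sign were confined, among the alternatives run, to values that were not called. With more than 30 reads in every library the log2 fold change was 0.0066 for *Cebpa* with BRD3308 in P199L-ERG cells and -0.0021 for *Cebpe* in P199L-ERG against WT-ERG cells in BRD3308. Without replicate 4 of both ERG constructs in DMSO it was -0.0073 for *Cebpb* and 0.0025 for *Cebpg* in WT-ERG against BB cells in DMSO, and -0.021 for *Cebpg* in P199L-ERG against WT-ERG cells in DMSO. With single libraries left out, *Cebpb* ran from -0.0069 to 0.034 in WT-ERG against BB in DMSO and from -0.058 to 0.022 in P199L-ERG against WT-ERG in BRD3308, *Cebpe* from -0.017 to 0.036 in P199L-ERG against WT-ERG in BRD3308, and *Cebpd* from -0.049 to 0.019 in P199L-ERG against BB in DMSO and from -0.013 to 0.051 in the response of P199L-ERG minus WT-ERG. *Cebpg* ran in DMSO from -0.10 to 0.093 in P199L-ERG against BB, from -0.15 to 0.059 in WT-ERG against BB and from -0.041 to 0.12 in P199L-ERG against WT-ERG, and in BRD3308 from -0.047 to 0.21, from -0.078 to 0.12 and from -0.049 to 0.17. Its responses ran from -0.00014 to 0.26 for P199L-ERG minus BB, from -0.047 to 0.20 for WT-ERG minus BB and from -0.081 to 0.14 for P199L-ERG minus WT-ERG. The causes were not tested.

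Counts over all genes moved more. With the replicate block 1026 in place of 606 genes passed in P199L-ERG against WT-ERG cells in DMSO and 732 in place of 441 in BRD3308, and for the responses 467 in place of 136 (P199L-ERG minus BB), 421 in place of 224 (WT-ERG minus BB) and 28 in place of 6 (P199L-ERG minus WT-ERG). With only the groups compared, 2237 in place of 3652 genes passed in P199L-ERG against BB cells in DMSO and 229 in place of 606 in P199L-ERG against WT-ERG cells in DMSO. Without a filter 300 in place of 136 passed for the response of P199L-ERG minus BB. Of 99 called results of 26 named list genes, 16 lost the call or moved by over 1.5 times with a single library left out. With the longest transcript as length, the *Cebpg* share was 2.54% to 2.67% in BRD3308-treated groups and 1.84% to 2.16% in DMSO-treated groups.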
